A study of Mus musculus with 6 samples.

Results

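Triglyceride lipases and the proteins that switch them on or off were examined in subcutaneous white adipose tissue (scWAT) of mice. The members are 9 genes, listed by name for their role in this pathway with earlier results of these data known: *Pnpla2*, *Pnpla3*, *Lipe*, *Mgll*, *Abhd5*, *Abhd6*, *G0s2*, *Ces1d* and *Ces1f*. They are 9 of the 55401 genes counted, and all 9 were among the 16807 that passed a filter on low counts. In lipolysis, triglyceride stored in the lipid droplet of the adipocyte is cut step by step into fatty acids and glycerol. Adipose triglyceride lipase (*Pnpla2*) takes the first fatty acid, hormone-sensitive lipase (*Lipe*) acts mainly on the diacylglycerol left, and monoglyceride lipase (*Mgll*) releases the last. ABHD5 (CGI-58) activates adipose triglyceride lipase and G0S2 inhibits it, while adrenergic signals through cAMP and protein kinase A open the pathway.

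Bulk RNA-seq compared 3 male mice per group, 1 library each, 8 weeks old and kept at room temperature. Control mice (YT-FF) carried floxed *Yap* and *Taz* alleles without Cre; their sample labels read WT, and the group name follows the study's methods. YT-AKO mice carried the same floxed alleles and *Adipoq*-Cre, which recombines in mature adipocytes, so that the other cells of the tissue keep both genes. The comparison asks how the loss of YAP and TAZ in adipocytes alters the RNA of these genes in whole scWAT, where fewer cells of a type and less RNA per cell cannot be told apart.

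The 6 libraries held 17740987 to 21838493 counted fragments. *Yap1* fell, from 1295 to 1622 fragments in YT-FF to 492 to 649 in YT-AKO (log2 fold change -0.98, edgeR BH-adjusted p = 0.0179). *Wwtr1*, which encodes TAZ, went against its label, with 1729 to 1918 fragments in YT-FF and 2253 to 3015 in YT-AKO (0.89, edgeR BH-adjusted p = 0.022). These counts cover whole genes, so the loss of a floxed exon would not show in them by itself. The group is therefore called the libraries labelled YT-AKO, and every direction below rests on that label. For protein, which these counts do not measure, the study reported less YAP and TAZ on immunoblots of scWAT from YT-AKO mice. The fold changes also followed gene length: over all tested genes the rank correlation (Spearman's rho) of log2 fold change with exon length was -0.376, and -0.283 without YT-AKO 2, the library with the lowest TMM scaling factor (0.777, against 0.954 to 1.16 in the others). The summed CPM of 8 adipocyte markers was 14949.5 to 19693 in YT-FF and 34936 to 77533 in the libraries labelled YT-AKO, led by *Cfd*, although only *Cfd* and *Fabp4* passed the test and *Adipoq* did not (0.43, edgeR BH-adjusted p = 0.176). Of the other cell types, summed macrophage markers were 1084 to 1261 and 1562 to 2139 CPM and endothelial markers 557 to 577 and 401 to 510.2 CPM, in both cases without overlap between the groups, and skeletal muscle markers reached 3063 CPM in YT-AKO 1 against 143 to 491 in the rest. The part of these differences in the results below was not tested.

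Of the 9 genes, 5 rose in the libraries labelled YT-AKO and 0 fell: *G0s2*, *Ces1d*, *Lipe*, *Pnpla2* and *Ces1f*, with log2 fold changes of 0.72 to 1.83. Calls were made with edgeR's quasi-likelihood test at a Benjamini-Hochberg adjusted p under 0.05, by which 12.6% of all tested genes were called higher, 9.01% lower and 21.6% in either direction. The median log2 fold change was 0.72 over the 9 genes and -0.02 over all tested genes. At an unadjusted p under 0.05, edgeR, DESeq2 and limma-voom each counted 6 genes higher and 0 lower, where edgeR had 22.2% of all tested genes higher. The count of 5 depended on single libraries: it was 0 without YT-FF 1, 0 without YT-FF 2, 1 without YT-FF 3, 4 without YT-AKO 1, 6 without YT-AKO 2 and 1 without YT-AKO 3. Over all tested genes the share called higher was 0% without YT-FF 1, 0% without YT-FF 2, 4.03% without YT-FF 3, 12.7% without YT-AKO 1, 16.9% without YT-AKO 2 and 10.2% without YT-AKO 3. DESeq2 called 6 members and 18.1% of all genes higher, edgeR with fold changes corrected for gene length 3 members and 10.1%, with library totals alone 1 member and 6.77%, and with the replicate number as a block 0 members and 0.143%. With a stricter rule, a log2 fold change beyond 1 at an adjusted p under 0.01, edgeR called 0 members and 0.125% of all genes, while DESeq2 called 1 member, *G0s2* (1.84, DESeq2 adjusted p = 5.7e-09), and 11.9% of all genes.

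**Figure D1:**
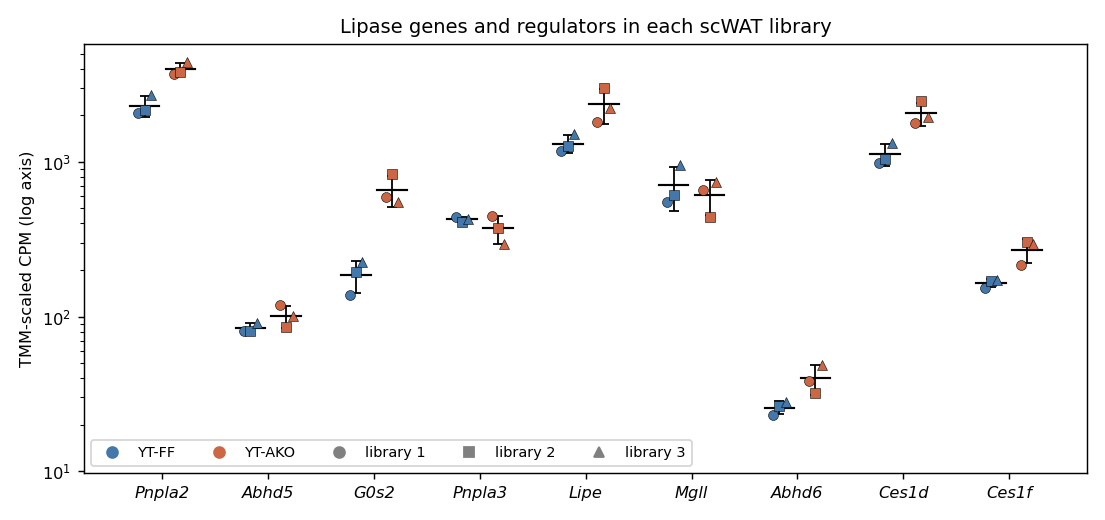
Level of each gene in each of the 6 scWAT libraries, in CPM (fragments scaled to the TMM-adjusted library size) on a log axis. Blue points are YT-FF and orange points the libraries labelled YT-AKO, symbols mark the library number, and bars give the mean and SD of 3 libraries. The groups do not overlap for *Pnpla2*, *G0s2*, *Lipe*, *Abhd6*, *Ces1d* and *Ces1f*, with the widest gap in *G0s2* (138 to 224 against 552 to 835 CPM).

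*Pnpla2* (ENSMUSG00000025509, chr7:141455198-141460743 of mm10, plus strand) encodes the rate-limiting lipase of the pathway. Its level was 2055, 2152 and 2709 CPM in YT-FF 1 to 3 and 3701, 3797 and 4434 CPM in the libraries labelled YT-AKO 1 to 3. All 3 labelled libraries lay above all 3 controls, and the means were 2305 ± 353 and 3977 ± 398 CPM (SD, n = 3). *Pnpla2* rose 1.73-fold, with a log2 fold change of 0.79 (95% interval 0.28 to 1.29, SE 0.218, edgeR BH-adjusted p = 0.0407). The call held without YT-AKO 2 (0.82, edgeR BH-adjusted p = 0.00968) and was lost without each of the others, with adjusted p of 0.17, 0.177 and 0.0554 without YT-FF 1, 2 and 3 and 0.0594 and 0.0857 without YT-AKO 1 and 3. No exon base of *Pnpla2* overlaps another gene, and no 50-base word of its transcripts is shared with one.

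*G0s2* (ENSMUSG00000009633, chr1:193272161-193273217, minus strand), whose product binds adipose triglyceride lipase and blocks it, had the largest log2 fold change of the 9 genes. Its controls YT-FF 1 to 3 had 138, 195 and 224 CPM, against 595, 835 and 552 CPM for the libraries labelled YT-AKO 1 to 3, from 3244 to 4437 and 9340 to 14160 fragments. The lowest labelled library was well above the highest control. *G0s2* rose 3.56-fold, from 186 ± 43.8 to 661 ± 153 CPM (SD, n = 3; log2 fold change 1.83, 95% interval 1.23 to 2.43, SE 0.258, edgeR BH-adjusted p = 0.0166), and 97.3% of all tested genes had a smaller log2 fold change. At 871 exon bases *G0s2* is also the shortest of the 9 genes, longer than only 7.15% of tested genes. With the length correction its log2 fold change was 1.41 (edgeR BH-adjusted p = 0.0182). Leaving out YT-FF 1 or YT-FF 2 ended the call (1.65 with adjusted p = 0.11, and 1.86 with adjusted p = 0.111), and in the other 4 fits with a library left out it was called, at 1.62 to 1.99.

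*Abhd5* (ENSMUSG00000032540, chr9:122351608-122381524, plus strand), the activator of the same lipase, was not called. The values were 80.2, 80.9 and 91.5 CPM in YT-FF 1 to 3 and 118, 85 and 101 CPM in the libraries labelled YT-AKO 1 to 3, where YT-AKO 2 lay within the control range. Its log2 fold change was 0.27 (95% interval -0.13 to 0.66, SE 0.17, edgeR BH-adjusted p = 0.266). When libraries were scaled by their totals alone, the value was -0.04, in a fit whose median over all genes was -0.34. With both the length correction and YT-AKO 2 left out it was 0.51 and passed the test (edgeR BH-adjusted p = 0.0257). Exons of A730085K08Rik cover 16% of its exon bases, and fragments there were left out of the counts.

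The stretches just before the starts of *Pnpla2* and *G0s2* are shown because these were the lipase and the inhibitor that rose together, and those of *Abhd5* and *Pnpla3* because they hold the only motif matches among the 7 members with a RefSeq promoter entry. Each line runs 5′ to 3′ over the 250 bases before the RefSeq start site in GRCm38.p6 (the build of mm10), at chr7:141454938-141455187 (plus strand) for *Pnpla2*, chr1:193273189-193273438 (minus strand) for *G0s2*, chr9:122351366-122351615 (plus strand) for *Abhd5* and chr15:84167566-84167815 (plus strand) for *Pnpla3*. Capitals mark a motif match.
Pnpla2: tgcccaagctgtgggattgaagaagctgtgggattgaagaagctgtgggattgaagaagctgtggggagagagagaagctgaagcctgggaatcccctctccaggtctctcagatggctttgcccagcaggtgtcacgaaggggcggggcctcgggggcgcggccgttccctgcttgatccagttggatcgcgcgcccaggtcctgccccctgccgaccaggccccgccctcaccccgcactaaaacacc
G0s2: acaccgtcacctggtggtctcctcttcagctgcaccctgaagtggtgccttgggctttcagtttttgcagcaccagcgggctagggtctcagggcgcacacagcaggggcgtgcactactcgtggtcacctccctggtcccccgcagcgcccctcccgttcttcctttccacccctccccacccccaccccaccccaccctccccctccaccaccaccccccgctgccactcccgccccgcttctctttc
Abhd5: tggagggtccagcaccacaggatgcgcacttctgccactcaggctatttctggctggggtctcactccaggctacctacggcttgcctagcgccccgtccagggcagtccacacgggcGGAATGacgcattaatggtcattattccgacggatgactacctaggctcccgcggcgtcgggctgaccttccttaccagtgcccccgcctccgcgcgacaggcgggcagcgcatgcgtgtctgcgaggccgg
Pnpla3: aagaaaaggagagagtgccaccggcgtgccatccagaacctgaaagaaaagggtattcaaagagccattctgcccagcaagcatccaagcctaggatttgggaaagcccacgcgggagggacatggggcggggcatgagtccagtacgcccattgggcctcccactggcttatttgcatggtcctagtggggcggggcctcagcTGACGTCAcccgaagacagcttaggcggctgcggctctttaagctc
In windows from 250 bases before to 50 after the start, both strands were searched for the core GGAATG of TEAD factors, the DNA-binding partners of YAP and TAZ, the C/EBP letters TTGCNNAA, the cAMP response element TGACGTCA and the PPAR:RXR direct repeat. Of the 10 promoters of members, 1 held the TEAD core (*Abhd5*, at -132 from the start), 1 the cAMP element (*Pnpla3*, at -46) and 0 either of the other motifs. Of all 32851 promoters of this length, 14.7% held the TEAD core, 10.8% the C/EBP letters, 1.79% the cAMP element and 0.0396% the PPAR:RXR repeat. The windows of *Pnpla2* and *G0s2* held none of these letters, and 65.3% and 66.7% of their bases were G or C.

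*Pnpla3* (ENSMUSG00000041653, chr15:84167837-84187236, plus strand), a close relative of *Pnpla2* whose product sits on lipid droplets, did not pass the test. It was at 439.5, 407 and 427 CPM in YT-FF 1 to 3 and at 448, 371 and 296 CPM in the libraries labelled YT-AKO 1 to 3. The controls were close together, and YT-AKO 1 lay above all of them. The log2 fold change was -0.19 (95% interval -0.65 to 0.26, SE 0.197, edgeR BH-adjusted p = 0.485). The gene is short, at 1548 exon bases, and with the length correction the value was -0.57 (edgeR BH-adjusted p = 0.0831).

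*Lipe* (ENSMUSG00000003123, chr7:25379527-25398710, minus strand), hormone-sensitive lipase, was at 1167, 1261 and 1505 CPM in YT-FF 1 to 3 and 1810.4, 2984 and 2238 CPM in the libraries labelled YT-AKO 1 to 3. The groups did not overlap, and YT-AKO 2 was the highest. *Lipe* rose 1.79-fold, from 1311 ± 175 to 2344 ± 594 CPM (SD, n = 3; log2 fold change 0.84, 95% interval 0.27 to 1.41, SE 0.247, edgeR BH-adjusted p = 0.0477). The call was lost without YT-FF 1 (adjusted p = 0.18), YT-FF 2 (0.182), YT-FF 3 (0.0764) or YT-AKO 3 (0.0771). It held without YT-AKO 1 (1.01) and without YT-AKO 2 (0.63, edgeR BH-adjusted p = 0.0223). Exons of 4732471J01Rik overlap 15.6% of the exon bases of *Lipe*.

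*Mgll* (ENSMUSG00000033174, chr6:88724412-88828360, plus strand), which takes the final fatty acid off glycerol and also breaks down an endocannabinoid, showed no call. The levels were 548, 608 and 955 CPM in YT-FF 1 to 3 and 656, 438 and 735 CPM in the libraries labelled YT-AKO 1 to 3. The groups overlapped, with the highest value in YT-FF 3 and the lowest in YT-AKO 2. Its log2 fold change was -0.21 (95% interval -0.87 to 0.46, SE 0.288, edgeR BH-adjusted p = 0.613), which became 0.08 without YT-FF 3 and -0.02 without YT-AKO 2.

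*Abhd6* (ENSMUSG00000025277, chr14:8002902-8056763, plus strand), another monoacylglycerol hydrolase, lay just outside the threshold. It had 23.1, 26.4 and 28 CPM in YT-FF 1 to 3 and 38.5, 32 and 49 CPM in the libraries labelled YT-AKO 1 to 3. All labelled libraries exceeded all controls. The log2 fold change was 0.62 (95% interval 0.17 to 1.07, SE 0.194, edgeR BH-adjusted p = 0.0546). DESeq2 called it (0.62, DESeq2 adjusted p = 0.0245), as did edgeR without YT-AKO 2 (0.76, edgeR BH-adjusted p = 0.0076). The value was smaller with the length correction (0.39, edgeR BH-adjusted p = 0.205), with library totals alone (0.32, edgeR BH-adjusted p = 0.336) and without YT-AKO 3 (0.46, edgeR BH-adjusted p = 0.124).

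*Ces1d* (ENSMUSG00000056973, chr8:93166068-93197838, minus strand) and *Ces1f* (ENSMUSG00000031725, chr8:93256236-93279747, minus strand) are neighbouring carboxylesterases that hydrolyse triglyceride and other esters and are best known from liver and fat. *Ces1d* was at 988, 1049 and 1329 CPM in YT-FF 1 to 3 and 1782, 2456 and 1944 CPM in the libraries labelled YT-AKO 1 to 3. *Ces1f* was at 153, 170.3 and 172 CPM in YT-FF 1 to 3 and 216, 303 and 294 CPM in the libraries labelled YT-AKO 1 to 3. For both genes each labelled library was above each control. *Ces1d* rose 1.84-fold (log2 fold change 0.88, 95% interval 0.36 to 1.4, SE 0.225, edgeR BH-adjusted p = 0.0344). *Ces1f* rose 1.64-fold (log2 fold change 0.72, 95% interval 0.29 to 1.14, SE 0.184, edgeR BH-adjusted p = 0.0342). Both calls were lost without YT-FF 1 (adjusted p = 0.15 and 0.149), YT-FF 2 (0.156 and 0.142), YT-FF 3 (0.0528 and 0.0779) or YT-AKO 3 (0.0563 and 0.0737), and both held without YT-AKO 1 or YT-AKO 2. The 6 hepatocyte markers summed to 12.1 to 38.5 CPM in the controls and 11.8 to 16.5 CPM in the labelled libraries. Nearly all of that sum was *Alb*, present in every library (log2 fold change -0.71, edgeR BH-adjusted p = 0.27). *Apoa1*, which did not pass the filter on low counts, had 0, 0 and 1 fragments in the controls against 7, 25 and 7. *Apoh* and *Ahsg* had at most 3 and 2 fragments in a control and 0 in the labelled libraries, and *Ttr* and *Fgb* had 0 throughout. The part of hepatocyte RNA in the rise of the pair was not tested. The transcripts of the pair are alike in part: 1.08% of the 50-base words of *Ces1d* and 0.903% of those of *Ces1f* occur in another gene, including each other.

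**Figure D2:**
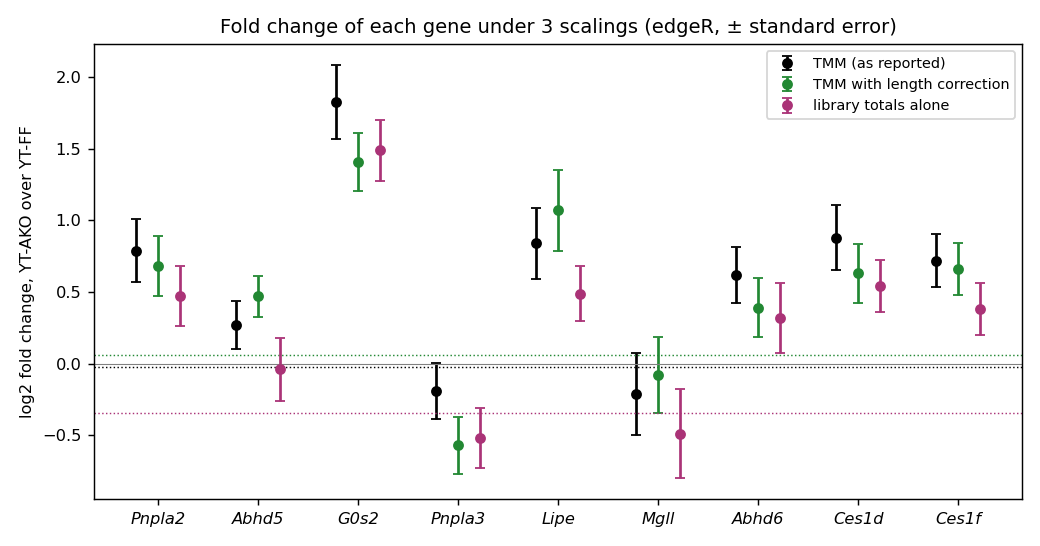
Log2 fold change of each gene (libraries labelled YT-AKO over YT-FF, edgeR, bars ± standard error) with TMM scaling, with TMM and the gene length correction, and with library totals alone. Dotted lines give the median of all tested genes in each fit (-0.02, 0.06 and -0.34). *G0s2* is highest in all 3 fits (1.83, 1.41 and 1.49), and *Abhd5* crosses 0 with library totals (-0.04).

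Scaling by library totals alone placed the median of all genes at -0.34 and left 1 member called, *G0s2* (1.49, edgeR BH-adjusted p = 0.0173). A change of scaling shifts all genes by nearly the same amount, so values relative to the median of all genes could hardly move. They were 0.81 in either fit for *Pnpla2*, 0.86 with TMM and 0.83 with library totals for *Lipe*, and 1.85 and 1.83 for *G0s2*. With the length correction, which shifts genes by different amounts, these relative values were 0.62, 1.01 and 1.36. The length correction was applied because fold changes followed length over all genes. It left *G0s2*, *Lipe* (1.07, edgeR BH-adjusted p = 0.0451) and *Ces1f* (0.66, edgeR BH-adjusted p = 0.0483) called, and *Pnpla2* (0.68) and *Ces1d* (0.63) at edgeR BH-adjusted p of 0.0643 and 0.0711. The signs of the 5 called genes were positive in each of the 17 alternative fits.

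To set the genes against each other, levels were expressed per exon length, as TPM. In YT-FF the order was *Pnpla2* (2888 ± 317 TPM), *Ces1d* (1792 ± 213), *Pnpla3* (1042 ± 48.4), *Lipe* (843 ± 80.3), *G0s2* (808 ± 173), *Mgll* (522 ± 139), *Ces1f* (191 ± 12.9), *Abhd5* (53.6 ± 1.81) and *Abhd6* (41.5 ± 3.41; SD, n = 3). Neighbours in this order had ranges apart over the 3 controls, except for *Lipe* and *G0s2* and for *G0s2* and *Mgll*. The lipase *Pnpla2* thus stood far above its activator *Abhd5* in RNA. In the libraries labelled YT-AKO *G0s2* was at rank 3, at 1769.5 ± 119.6 TPM, below *Ces1d* (2048 ± 211) in each library, though their ranges overlapped, and above *Lipe* (927 ± 94.1) and *Pnpla3* (582 ± 201) in every library. *Pnpla2* (3204 ± 913 TPM) and *Ces1d* overlapped there, as did *Mgll* (302 ± 131) and *Ces1f* (196 ± 42.3), and *Abhd5* (42.2 ± 15.6) and *Abhd6* (41.8 ± 16.6).

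**Figure D3:**
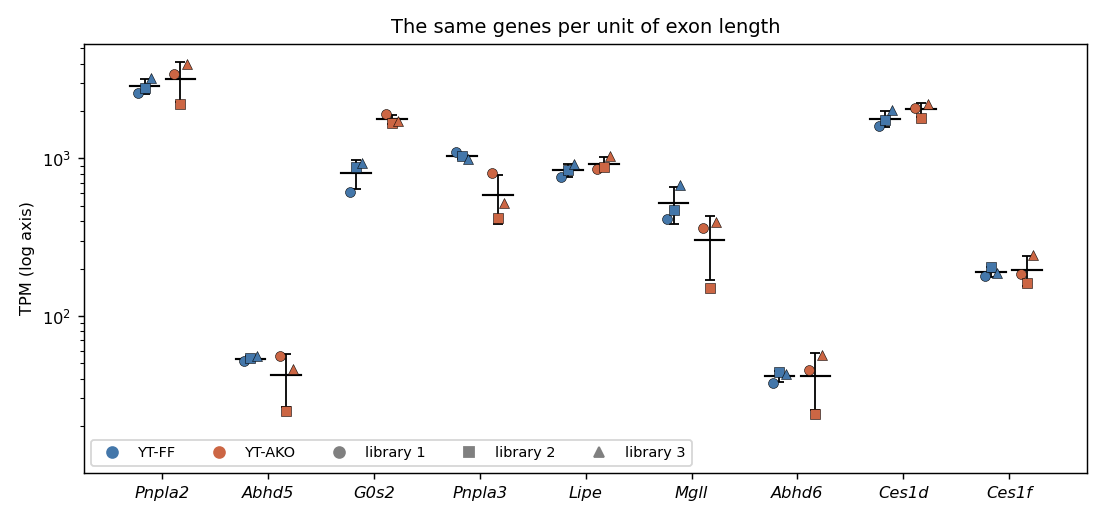
The same 9 genes in TPM (log axis), which divides by exon length, with points, colours and bars as in the plot of CPM. *G0s2* alone has all labelled libraries above all controls (1680.2 to 1905 against 610.1 to 929 TPM), and YT-AKO 2 is the lowest labelled library for 8 of the 9 genes.

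TPM carries no TMM scaling, and the median log2 ratio of mean TPM between the groups over all tested genes was -0.66, against -0.02 in CPM. On this scale 1 member, *G0s2*, was higher in all labelled libraries than in all controls, 2 (*Pnpla3* and *Mgll*) were lower and 6 overlapped. Over all tested genes 7.52% were higher and 54.5% lower without overlap in TPM. In CPM 6 members were higher without overlap, 0 lower and 3 overlapped, where 25.7% of all tested genes were higher and 25.8% lower. As a share of the summed TPM of the 9 genes, *G0s2* made up 8.28%, 10.9% and 10.2% in the controls YT-FF 1 to 3 and 19.6%, 22.8% and 16.8% in the libraries labelled YT-AKO 1 to 3. *Pnpla3* made up 14.8%, 12.8% and 11% of that sum in the controls and 8.29%, 5.7% and 5.07% in the labelled libraries. Neither share overlapped between the groups, while that of *Pnpla2* was 34.7% to 35.7% and 29.9% to 39%. The shares of *Mgll* (5.64% to 7.48% and 2.05% to 3.84%) and *Abhd5* (0.611% to 0.703% and 0.339% to 0.57%) were also lower without overlap. As parts of 1 sum the shares are not independent, since a larger share of *G0s2* lowers the rest. They also carried no length correction, and no background over all tested genes was computed for them. *G0s2* (871 exon bases) and *Pnpla3* (1548) are short, *Mgll* (5077) and *Abhd5* (5956) longer. With the length correction the log2 fold changes of *Pnpla3*, *Mgll* and *Abhd5* were -0.57, -0.08 and 0.47. The part of gene length in the shares was not tested.

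Ratios of 2 genes within a library do not depend on the scaling between libraries. The ratio of *G0s2* to *Pnpla2*, inhibitor to lipase, was 0.233, 0.314 and 0.287 in the controls YT-FF 1 to 3 and 0.558, 0.763 and 0.432 in the libraries labelled YT-AKO 1 to 3, in counts per kilobase. Each labelled library was above each control, by 1.04 in mean log2 ratio or 2.06-fold. The 2 genes differ in length, and with the length correction the difference was 0.75. The ratio of the activator *Abhd5* to *Pnpla2* was 0.0198, 0.0191 and 0.0171 in the controls and 0.0162, 0.0114 and 0.0115 in the labelled libraries, a log2 difference of -0.53 without overlap. With the length correction the *Abhd5* to *Pnpla2* difference was -0.22, with a two-sided exact permutation p of 0.3.

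The ratio of *Lipe* to *Pnpla2* was 0.291, 0.301 and 0.285 in the controls YT-FF 1 to 3 and 0.251, 0.403 and 0.259 in the libraries labelled YT-AKO 1 to 3. The groups overlapped, with YT-AKO 2 high and the other labelled libraries low, and the log2 difference was 0.02. The ratio of *Mgll* to *Lipe*, the final against the middle step, was 0.545, 0.559 and 0.736 in the controls and 0.42, 0.17 and 0.381 in the labelled libraries, lower without overlap by a log2 difference of -1.01. Without YT-AKO 2, where *Mgll* to *Lipe* was lowest and *Lipe* to *Pnpla2* highest, these differences were -0.60 and -0.20. In a two-sided exact permutation test p was 0.1 for each of the ratios without overlap, the smallest that 3 against 3 libraries can give, and 1 for *Lipe* to *Pnpla2*. Adjusted over the 4 ratios these exact p became 0.133 and 1, so none could pass a threshold of 0.05.

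**Figure D4:**
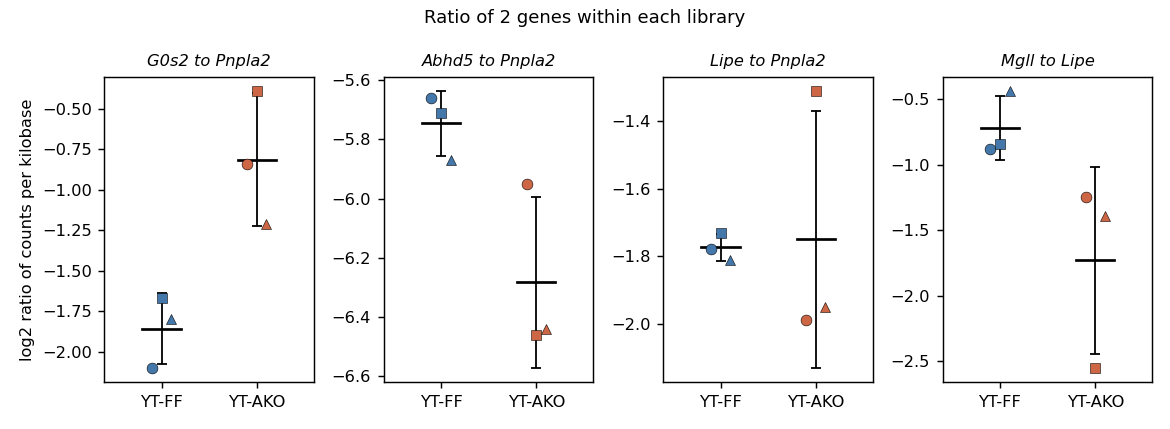
Log2 ratio of 2 genes, in counts per kilobase, within each library. Blue points are YT-FF, orange points the libraries labelled YT-AKO, symbols mark the library number and bars give the mean and SD of 3 libraries; each panel has its own axis. *G0s2* to *Pnpla2* is higher in all labelled libraries, *Abhd5* to *Pnpla2* and *Mgll* to *Lipe* are lower, and *Lipe* to *Pnpla2* overlaps.

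The rest of the pathway was followed in 50 genes outside the 9, all of them tested, of which 11 were called higher and 4 were called lower, or 22% and 8%, against 12.6% and 9.01% of all tested genes. Their median log2 fold change was 0.01. By role, 5 of 8 droplet gatekeepers rose and 0 fell, 4 of 8 genes that handle the products rose and 0 fell, and 1 of 10 receptors rose and 2 fell. Of 9 cAMP and kinase genes 0 rose and 1 fell, of 6 other lipid hydrolases 1 rose and 0 fell, and of 9 transcriptional controllers 0 rose and 1 fell. These counts over the 50 genes were 0 and 0 without YT-FF 1, 0 and 1 without YT-FF 2, 6 and 2 without YT-FF 3, 10 and 6 without YT-AKO 1, 17 and 7 without YT-AKO 2 and 9 and 2 without YT-AKO 3. In the same order, edgeR called 0%, 0%, 4.03%, 12.7%, 16.9% and 10.2% of all tested genes higher and 0%, 0.0117%, 3.02%, 8.24%, 14% and 5.12% lower. Scaled by library totals alone, 6 were called higher and 9 lower, against 6.77% and 16.8% of all tested genes, and of the product-handling genes edgeR then called 0, with 3 higher and 1 lower at an unadjusted p under 0.05.

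Among the droplet gatekeepers, which coat or enlarge the lipid droplet, *Cidea* rose most, from 110, 117 and 159.7 CPM in YT-FF 1 to 3 to 1025, 1491 and 975 CPM in the libraries labelled YT-AKO 1 to 3 (log2 fold change 3.17, edgeR BH-adjusted p = 0.00729). *Plin5*, a perilipin of oxidative tissues that binds both adipose triglyceride lipase and ABHD5, was at 18.2, 21.3 and 28.7 CPM and at 118, 133 and 108 CPM (2.40, edgeR BH-adjusted p = 0.00729). Neither gene's groups overlapped. *Plin2* rose 3.1-fold, *Plin3* 2.14-fold and *Hilpda*, another inhibitor of adipose triglyceride lipase, 2.26-fold, from 5.41 to 6.54 CPM in the controls to 9.4 to 18.5 CPM (edgeR BH-adjusted p = 0.0146, 0.0177 and 0.0287). The perilipin that holds ABHD5 in resting adipocytes, *Plin1*, was at 1481 to 1807 CPM in YT-FF and 1462 to 2831 CPM in the libraries labelled YT-AKO and was not called (0.36, edgeR BH-adjusted p = 0.352), and nor was *Cidec* (0.40, edgeR BH-adjusted p = 0.218).

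Of the genes that handle fatty acids and glycerol, *Fabp4* (log2 fold change 1.34), *Gk*, the glycerol kinase (1.32), *Fabp5* (0.83) and *Dgat1*, which re-esterifies fatty acids (0.68), rose (edgeR BH-adjusted p = 0.0475, 0.0238, 0.027 and 0.0433). The fatty acid carrier *Cd36* (0.03) and the glycerol channel *Aqp7* (0.15) had edgeR BH-adjusted p of 0.934 and 0.665. Among the receptors, the natriuretic peptide receptor *Npr1*, which drives lipolysis through cGMP, rose from 54.1 to 66.8 CPM to 105 to 137 CPM (0.99, edgeR BH-adjusted p = 0.0177). *Npr3*, which clears the same peptides, fell from 263, 199 and 579 CPM in YT-FF 1 to 3 to 11.8, 10.4 and 9.04 CPM in the libraries labelled YT-AKO 1 to 3 (-5.06, edgeR BH-adjusted p = 0.00729), and the anti-lipolytic adenosine receptor *Adora1* fell too (-0.95, edgeR BH-adjusted p = 0.023). *Npr1* and *Npr3* were thus called in opposite directions and without overlap. *Adrb3*, the main adrenergic receptor of mouse fat, was not called (0.29, edgeR BH-adjusted p = 0.399).

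Within the cell, *Prkacb*, a catalytic subunit of protein kinase A, fell (log2 fold change -0.62, edgeR BH-adjusted p = 0.0321), while *Pde3b*, the phosphodiesterase through which insulin lowers cAMP, was not called (-0.10, edgeR BH-adjusted p = 0.794). Of the transcriptional controllers *Irf4*, which promotes lipolysis in adipocytes, fell (-0.80, edgeR BH-adjusted p = 0.0235). In the same whole tissue the 5 B cell markers had a median log2 fold change of -0.83, with 5 negative and 2 called lower. Which cell type the fall of *Irf4* came from was not tested. *Pparg* (0.29) and *Foxo1* (-0.43), both known to act on *Pnpla2*, had edgeR BH-adjusted p of 0.496 and 0.133. Of the other hydrolases *Ddhd2* rose (0.70, edgeR BH-adjusted p = 0.0327), and lipoprotein lipase *Lpl*, which works outside the cell on circulating triglyceride, stood at 0.03 (edgeR BH-adjusted p = 0.928).

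**Figure D5:**
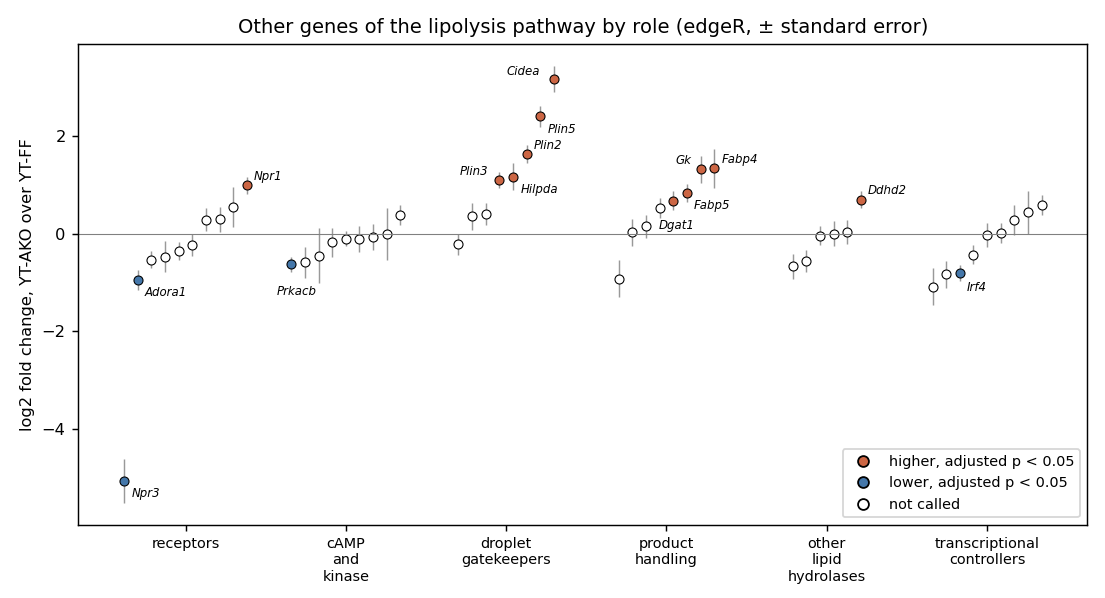
Log2 fold change (libraries labelled YT-AKO over YT-FF, edgeR, bars ± standard error) of the 50 other genes of the pathway, grouped by role on the x axis. Orange points were called higher and blue points lower at an adjusted p under 0.05, and white points were not called. The droplet gatekeepers hold 5 of the 11 genes called higher, led by *Cidea* (3.17), and *Npr3* is the lowest point (-5.06).

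The families of the members were then counted, where edgeR called 12.6% of all tested genes higher and 9.01% lower. Of the other patatin-like genes 3 of 5 were tested and 0 were called by edgeR, with 0 at an unadjusted p under 0.05 in edgeR and 0 called by DESeq2 or limma-voom. With the length correction edgeR called 1 of the 3 higher, against 10.1% of all tested genes. At an unadjusted p under 0.05 limma-voom had 1 of them lower, against 20.6% of all tested genes. Of 16 other carboxylesterases only *Ces2e* and *Ces2g* had enough counts to be tested, neither was called by edgeR, DESeq2 or limma-voom or had an unadjusted p under 0.05 in edgeR, and 7 of the 16 had no fragment in any library. The rise of *Ces1d* and *Ces1f* was therefore measured in a tissue where the rest of that family was at most 16.6 CPM. Of 17 other ABHD genes 16 were tested, and *Abhd11* (log2 fold change 1.31), *Abhd17a* (1.09) and *Abhd16a* (0.80) rose (edgeR BH-adjusted p = 0.0178, 0.0217 and 0.0232) while 0 fell. The share called higher was thus 18.8%, not far from the 12.6% of all tested genes. Scaled by library totals alone, 2 ABHD genes were called higher and 2 lower, against 6.77% and 16.8% of all tested genes. The median of those 16 was -0.03.

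The libraries differed among themselves in a way that recurred over the members. In YT-FF, library 1 was the lowest of the 3 for 8 of the 9 genes in CPM and library 3 the highest for 8. In the libraries labelled YT-AKO, library 2 was the highest for *Lipe*, *G0s2*, *Ces1d* and *Ces1f* and the lowest for *Mgll*, *Abhd5* and *Abhd6*. By the root mean square distance between log2 levels centred over the 6 libraries, the genes whose pattern was nearest to that of *Pnpla2* among 13188 were *St3gal3* (0.0239), *Ptdss2* (0.0497) and *Acat1* (0.0529). For *Lipe* they were *Mycbp* (0.0302), 1810010H24Rik (0.0419) and *Mfsd5* (0.0499), with *Ces1d* at rank 29 (0.0857). For *G0s2* they were *Cebpb* (0.113), *Ldhb* (0.121) and *Cycs* (0.142), and for *Mgll* they were *Acot2* (0.102), *Hsdl2* (0.107) and *Fgfrl1* (0.112). From *Lipe*, its neighbour in the pathway, *Mgll* was at a distance of 0.668, rank 8353 among the 13188 genes. The distances describe 6 libraries and carry no test.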

How the data were processed

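The 6 scWAT libraries, 3 YT-FF and 3 YT-AKO, were grouped by the genotype in their labels. Paired-end reads were aligned by the authors to mm10 with HISAT2, and featureCounts 2.0.1 assigned fragments to the exons of GENCODE vM25. The deposited values are raw counts, neither normalized nor filtered. Counting ignored strand and dropped any fragment with more than 1 alignment or more than 1 gene. The library totals, 17740987 to 21838493, set the counting precision. Counts were tested in R 4.3.3 with edgeR 4.0.16 (TMM, filterByExpr with a minimum count of 10 and total of 15, quasi-likelihood test, Benjamini-Hochberg over 16807 genes, called at an adjusted p under 0.05). CPM uses TMM factors, and TPM was computed from union exon lengths. Symbols were matched for 55141 gene identifiers and not for 260. Gene length was corrected per library by a spline (6 degrees of freedom). Single ratios used exact permutation tests. Promoters came from RefSeq for GRCm38.p6 and covered 7 of the 9 members; entries for *Ces1d* and *Ces1f* were not used here.

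The members and gene lists were chosen with earlier results of these data known. All 9 members are named, together with those genes of the pathway and family lists that were called and a few pathway genes listed by name whether called or not. The remaining marker lists, summed in CPM as ranges in YT-FF and in the libraries labelled YT-AKO, gave 73.3 to 107 and 79 to 86.5 for the brown depot, 852 to 988 and 518 to 869 for B cells, 259 to 397 and 219 to 497 for T cells, 3741 to 4698 and 4169 to 7012 for fibroblasts, 238 to 303 and 193 to 292 for Schwann cells, and 2.13 to 2.37 and 2.54 to 3.49 for epithelium (*Krt5* at 0). Nearly all of the brown depot sum was *Epsti1*, at 68.2 to 102 and 71.2 to 81 CPM. *Zic1* was at 0, and *Lhx8* at 3.09 to 6.46 and 2.42 to 4.73 CPM. *Eva1a* was at 1.24 to 2.01 and 3.01 to 4.83 CPM (log2 fold change 1.09, edgeR BH-adjusted p = 0.0609).

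Alternatives were DESeq2 1.42.0, limma-voom 3.58.1, upper-quartile normalization, scaling by library totals only, keeping all genes with a count, requiring 10 counts per library, robust dispersion estimates, a block for the replicate number, the length correction, block and correction combined, and omission of single libraries. The length correction without YT-AKO 2, the stricter rule with DESeq2, and levels relative to *Adipoq* or *Plin1*, were added after the data were seen. On simulated counts of 16355 genes with 200 changed by a log2 fold change of 2, 166 of the changed genes (83%) were recovered by edgeR with 12 false calls, 180 by DESeq2 with 45, and 162 by limma-voom with 9. Recovery at smaller log2 fold changes, such as the 0.72 to 0.88 of *Ces1f*, *Pnpla2*, *Lipe* and *Ces1d*, was not tested.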

Additional observations from a re-analysis of the deposited data

How the results depend on the processing

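Over the 17 alternative fits the log2 fold changes of the 9 genes kept their direction except for *Mgll*, at -0.36 to 0.08 with 1 library left out (0.08 without YT-FF 3) and 0.07 with the length correction without YT-AKO 2, and *Abhd5*, at -0.04 with library totals alone; the cause was not tested. *G0s2* ranged from 1.41 to 1.99 and was called in 13 of the 17. The number of members called higher, 5, was 6 with DESeq2, 1 with library totals alone, 3 with the length correction and, at an adjusted p under 0.01 with a log2 fold change beyond 1, 0 with edgeR and 1 (*G0s2*) with DESeq2, a rule that 0.125% and 11.9% of all genes passed. With 1 library left out it was 0 to 6. Of the 50 other lipolysis genes, 11 were called higher and 4 lower. The lower count was 7 of the 50 with DESeq2, which called 14.3% of all genes lower. With library totals alone 6 were higher and 9 lower, and with 1 library left out 0 to 17 were higher and 0 to 7 lower. Replicate numbers are shared by the groups, but same-numbered libraries did not deviate together (correlations 0.126, -0.118 and -0.0893), and YT-FF 2 and YT-FF 3 correlated best with another number. With the replicate number as a block, 0 members were called higher, and 2 of the other lipolysis genes were higher and 1 lower; with the block and the length correction these were 0, 3 and 1. Over all genes the block left 0.196% called. With the length correction the log2 ratio difference of *G0s2* to *Pnpla2* was 0.75, that of *Abhd5* to *Pnpla2* -0.22 and that of *Lipe* to *Pnpla2* 0.34. The two-sided exact permutation p of the last 2 was then 0.3 and 0.1. Without YT-AKO 2 the difference of *Lipe* to *Pnpla2* was -0.20. With 3 libraries a group, exact tests could not give a p below 0.1, and genes with overlapping exons lost fragments.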

Other observations

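Levels were also set against adipocyte genes of the same library, a comparison added after the data were seen. Relative to *Adipoq*, *G0s2* (mean log2 difference 1.39), *Ces1d* (0.43), *Lipe* (0.37) and *Pnpla2* (0.35) were higher in every library labelled YT-AKO than in every YT-FF library, and *Mgll* (-0.64) was lower in every one. The ratio of *Pnpla2* to *Adipoq* was 0.637, 0.668 and 0.62 in the controls and 0.873, 0.723 and 0.869 in the labelled libraries. Relative to *Plin1*, *G0s2* (1.53), *Pnpla2* (0.48) and *Abhd6* (0.30) were higher without overlap and *Mgll* (-0.51) lower, while *Lipe* (0.51), *Ces1d* (0.57) and *Ces1f* (0.39) overlapped. Each of the differences without overlap had a two-sided exact permutation p of 0.1, the smallest possible, and 0.2 after adjustment over the 18 comparisons, so none could pass a threshold of 0.05. On these scales the share of all tested genes without overlap was not computed. In CPM, 51.5% of all tested genes had groups without overlap in either direction. The ratios to *Adipoq* and *Plin1* carried no length correction.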
